A study of Mus musculus with 20 samples.

Results

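Oligodendrocytes are the cells that wrap axons of the brain in myelin. They arise from precursor cells that carry the PDGF receptor alpha, pass through a short premyelinating stage marked by genes such as Gpr17, Bcas1 and Enpp6, and end as mature cells that keep a large sheath supplied with lipid, iron, cytoskeleton and adhesion proteins. The factors Sox10, Olig1, Olig2 and Nkx6-2 hold the identity of the lineage. The 38 genes described here belong to this lineage and were listed apart from 8 structural myelin genes such as Mbp. They were chosen by gene name from the array annotation, out of 30210 gene names, and fall into 4 maturation stages, namely 4 precursor and premyelinating genes, 4 transcription factors, 4 enzymes of myelin lipid synthesis and turnover, and 26 genes of mature cells. The mature genes comprise 9 membrane, 6 cytoskeletal and 7 secreted or extracellular proteins and 4 enzymes. All 38 were found among 39429 non-control probes, and for the 12 genes with 2 probes the brighter one was taken.

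Male Swiss-Webster mice, 12 weeks old when they were separated from their families and then singly housed for 22 days of habituation, were put as intruders into cages of group-housed males. They were exposed to a single encounter (acute stress), to repeated encounters over 8 days or 13 days, or to 13 days of encounters followed by 5 days of rest (recovery). Each time point had its own undisturbed control mice, which were brothers of the stressed mice and were kept in an adjacent room. RNA came from a slice of the frontal pole, 1 mm thick, with orbital, prelimbic and frontal association cortex, collected 24 hours after the last encounter or, for recovery, after the rest. RNA of 3 mice was pooled, and a stress pool was hybridized against a control pool in 3 pairs of pools per time point. The values below are therefore log2 ratios of stress over control in pools 1, 2 and 3. An SE is that of the linear model in limma (n = 3 pools per time point), and adjusted p-values are those of limma over all 39429 probes. A gene was called changed where the adjusted p was under 0.05 and the log2 ratio was beyond 0.5 in either direction. Pooled mice and controls housed in another room limit what the ratios stand for, and in tissue RNA more cells of a type cannot be told apart from more RNA per cell.

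Of the 38 genes, 35 gave a signal well above background on all 20 arrays. Hapln2 did so on 19, Enpp6 on 2 and Klk6 on 1, so no ratio is given for Enpp6, a phosphodiesterase of newly formed cells, and Klk6, a secreted protease. They stay in the counts and medians over 38 genes below, and neither had an unadjusted p under 0.05 at any time point. All 8 neuron markers and all 7 astrocyte markers were well above background on all 20 arrays and so were all 8 structural myelin genes. Pool 1 of each time point was measured with stress in Cy5 alone, while pools 2 and 3 were measured in both dye orientations. A value of pool 2 or 3 can thus average arrays of opposite sign. Over all probes the original and swapped array of a pool correlated at -0.356 to -0.092 after both were turned to stress over control, so single arrays carry a dye effect that averaging over orientations reduces in pools 2 and 3 but not in pool 1.

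Under the call, 0 of the 38 genes were changed at any time point and 0 differed between acute stress and 8 days, between acute stress and 13 days, or between 13 days and recovery. The call was also rare over the whole array. Of all probes, acute stress gave 0.00254% calls, 8 days 0%, 13 days 0.0228% and recovery 0%. The 3 differences between time points, in the same order, gave 0%, 0.00254% and 0%.

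**Figure D1:**
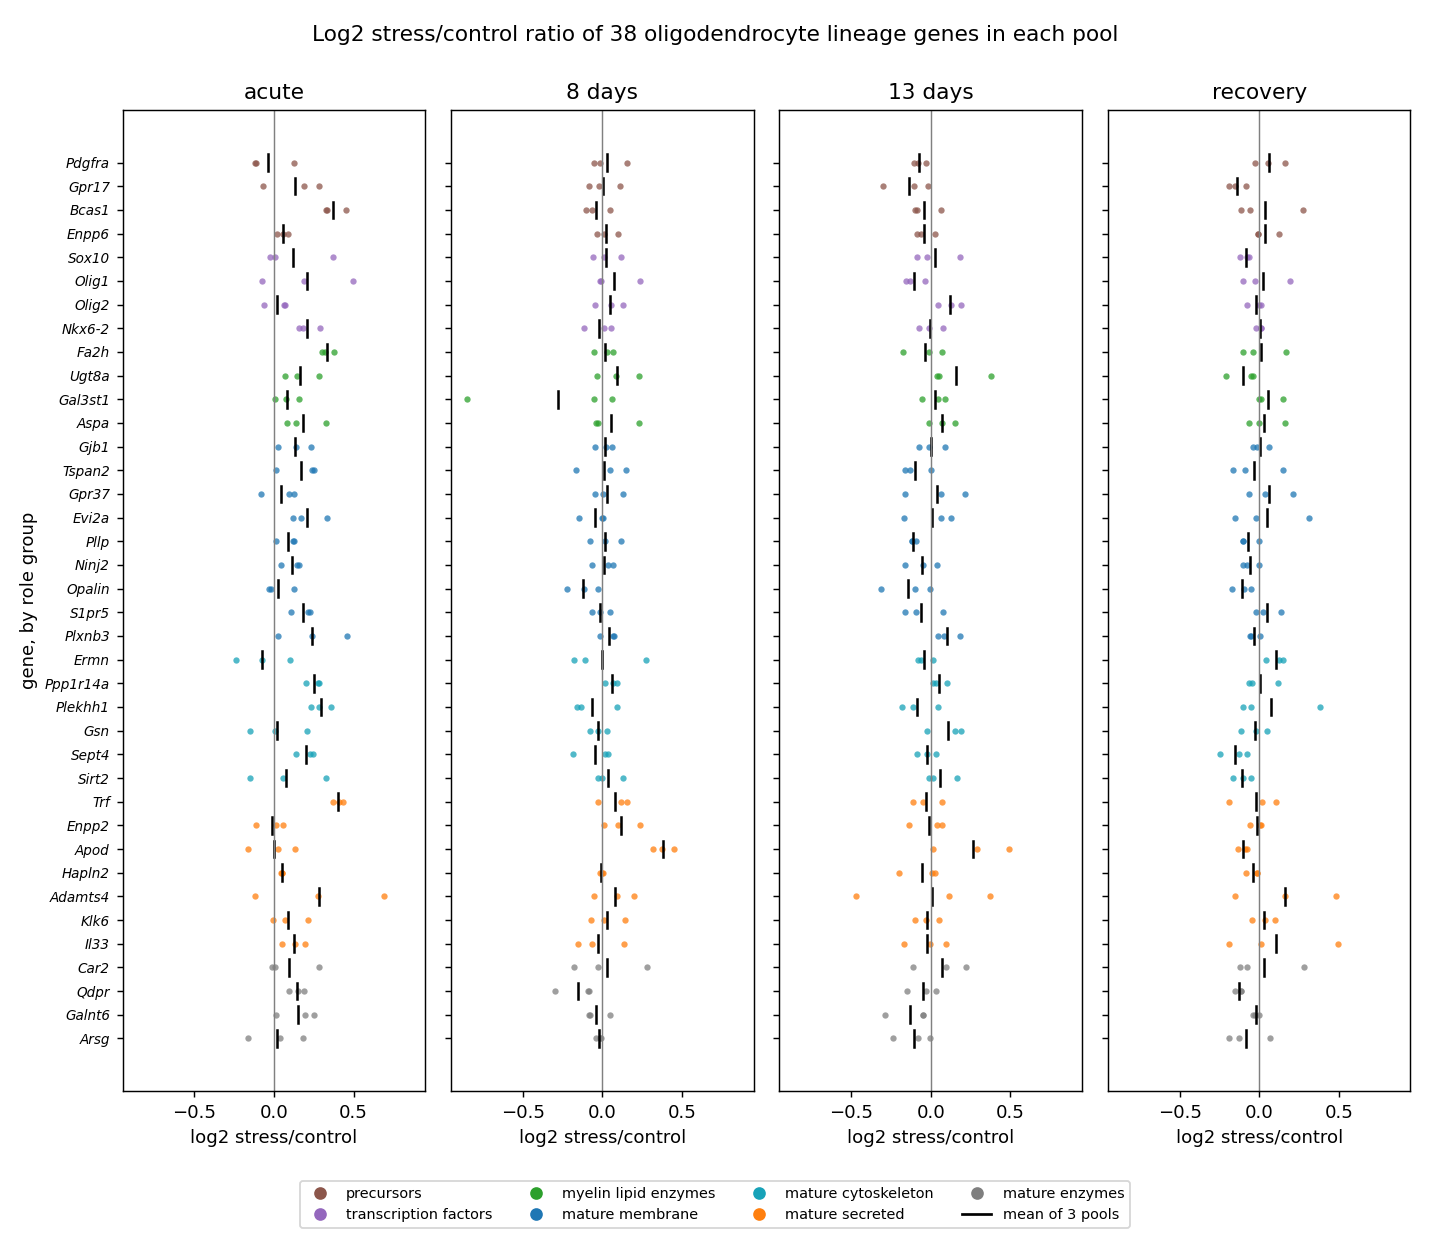
The log2 stress/control ratio of each of the 38 genes on the x axis, in 4 panels for the time points, with 1 dot per pool, a black bar for the mean of 3 pools, and colours for role groups. After acute stress most genes lie to the right of 0, with Trf, Bcas1 and Fa2h tight around 0.40, 0.37 and 0.33, while at the other time points the genes scatter around 0 apart from Apod.

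The clearest shift of the group followed a single encounter. After acute stress 34 of 38 genes had a ratio above 0, and 22 were above 0 in 3 of 3 pools against 13.9% of all probes, while 0 were below 0 in 3 of 3 pools against 14.4%. At an unadjusted p under 0.05 in limma, 18 genes were higher, against 2.38% of all probes, and 0 were lower, against 2.57%. Among the 26105 probes well above background on all 20 arrays the share that was higher was 2.80%. The median log2 ratio of the 38 genes was 0.13, with 0.16, 0.12 and 0.12 in the pools (SD 0.021), and that of all probes was 0.001. On the 5 single arrays the median was 0.16, 0.12, 0.16, 0.06 and 0.16, above 0 in both dye orientations. The count depended on the correction of the dyes within an array. Where arrays were centred on their median in place of loess, 1 gene was higher at that p, while the median of the 38 genes was 0.25.

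Trf encodes transferrin, the iron carrier that oligodendrocytes make and secrete, and it stood first. Its log2 ratio after acute stress was 0.44, 0.37 and 0.41 in pools 1 to 3. All 3 pools lay well above 0 and within a narrow range. The mean of 0.40 (SE 0.056), a ratio of 1.32 on the linear scale, had a limma adjusted p of 0.0549, just outside the threshold, and was below the size needed for a call. The adjusted p was 0.0136 without background correction and 0.0443 among probes well above background. It was 0.0328 or 0.0298 when pool 1 or pool 2 of recovery was left out of the shared fit. It was over 0.05 when any other single pool was left out, with a normexp offset of 0, and without between-array normalization. The same held for the log ratio of Feature Extraction, the authors' values, pools 2 and 3 alone, and moderation with a trend and robust fit. It was 0.94 with median centring, so the side of the threshold depended on the setting. A second probe of Trf, in another part of the transcript, gave 0.70, 0.37 and 0.26, with a mean of 0.44 (SE 0.084, adjusted p = 0.224). At 8 days the first probe gave 0.12, 0.15 and -0.03, after 13 days its mean was -0.03 and in recovery -0.02.

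The first 30 bases of both 60-base probes are shown, since 2 separate stretches of the Trf transcript gave the same direction after acute stress. On the mouse build mm9 the brighter probe is placed at chr9:103111207-103111266 and the other at chr9:103112826-103112885, both on the minus strand.
Trf, brighter probe: tcttcgctgctgtgccttaccacatacaca
Trf, other probe: aaatacttaggagcggagtacatgcaatct

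Among the enzymes of myelin lipids, all 4 were above 0 in 3 of 3 pools after acute stress and 3 were higher at an unadjusted p under 0.05. Fa2h, which adds the hydroxyl group to the fatty acids of myelin galactolipids, had 0.30, 0.38 and 0.32 in the pools. The 3 values did not come near 0, and the mean was 0.33 (SE 0.056, limma adjusted p = 0.12). Aspa, which releases acetate from N-acetylaspartate for lipid synthesis, had 0.33, 0.08 and 0.14, with pool 1 the highest, and a mean of 0.18 (SE 0.064, adjusted p = 0.926). Pool 3 of Aspa averaged arrays at -0.07 (stress in Cy5) and 0.35 (stress in Cy3). Ugt8a, which makes galactosylceramide, had a mean of 0.17 (SE 0.070), and Gal3st1, which sulfates it to sulfatide, had 0.01, 0.16 and 0.08, with a mean of 0.08 (SE 0.12). The stage median was 0.17, with 0.19, 0.15 and 0.21 in the pools (SD 0.031).

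The premyelinating and precursor genes did not move as 1 group. Bcas1, which is known from oligodendrocytes as they begin to myelinate, had 0.45, 0.33 and 0.32 after acute stress. Its pools were all above 0.30, and the mean was 0.37 (SE 0.065, limma adjusted p = 0.137). Pdgfra, the receptor that defines the precursor cells, had 0.13, -0.12 and -0.11, with 1 pool above 0 and 2 below it, and a mean of -0.03 (SE 0.056). Gpr17, a receptor of the premyelinating stage, had 0.29, -0.07 and 0.19, and its pools also lay on both sides of 0 (mean 0.13, SE 0.067). The stage median was 0.09, with 0.21, -0.03 and 0.12 in the pools (SD 0.12).

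Of the 4 transcription factors, Nkx6-2 and Olig1 were higher at an unadjusted p under 0.05. Nkx6-2, a homeobox factor of maturing oligodendrocytes, had 0.16, 0.29 and 0.18 after acute stress, all above 0, with a mean of 0.21 (SE 0.044, limma adjusted p = 0.285). Olig1 had 0.50, 0.19 and -0.07, so its mean of 0.21 (SE 0.088) rested mostly on pool 1. Sox10, the factor that drives myelin genes, showed the same spread with 0.37, 0.01 and -0.03 (mean 0.12, SE 0.071). Olig2, the factor that also marks precursors, had a mean of 0.02 (SE 0.045).

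**Figure D2:**
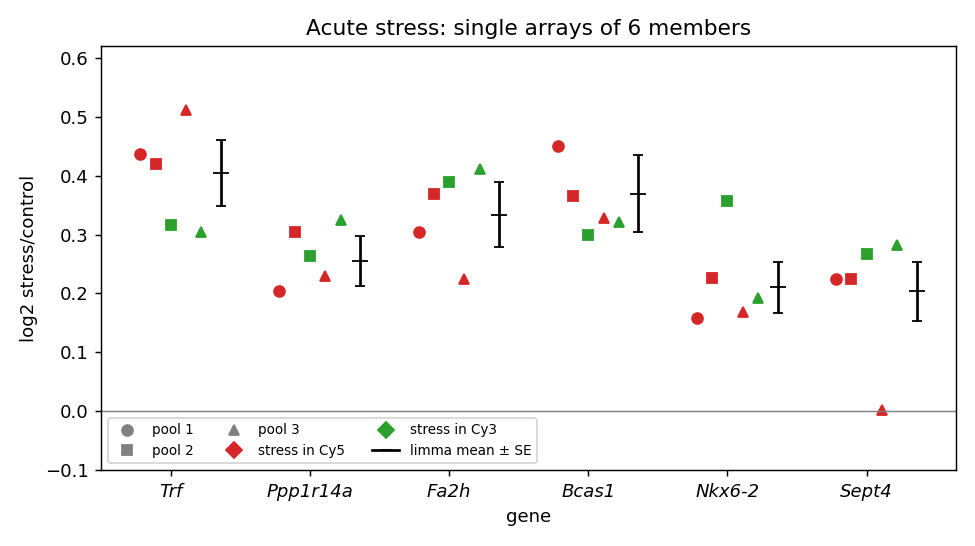
The log2 stress/control ratio after acute stress on each of 5 arrays for 6 genes, with shapes for pools and colours for the dye of the stress pool, and the limma mean with its SE in black. All 5 arrays lie above 0 for each gene, and Sept4 on the Cy5 array of pool 3 is the lowest at 0.002.

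Among the 26 mature genes, 12 were higher at an unadjusted p under 0.05 after acute stress, namely 6 of 9 membrane proteins, 3 of 6 cytoskeletal proteins, 1 of 7 secreted proteins and 2 of 4 enzymes. Ppp1r14a, an inhibitor of myosin phosphatase, had 0.20, 0.28 and 0.28 in the pools. These 3 values were all above 0 with little spread, and the mean was 0.26 (SE 0.042, limma adjusted p = 0.12). Sept4, a septin of the cytoskeleton, had 0.22, 0.25 and 0.14, with a mean of 0.20 (SE 0.050, adjusted p = 0.519), and its second probe gave 0.27, 0.27 and 0.20 (mean 0.25, SE 0.045, adjusted p = 0.164). Both Sept4 probes were thus above 0 in every pool. Plekhh1, a protein with lipid-binding domains, had 0.28, 0.24 and 0.36 (mean 0.29, SE 0.081).

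Of the membrane genes, S1pr5, the sphingosine-1-phosphate receptor of oligodendrocytes, had 0.11, 0.22 and 0.23, a mean of 0.19 (SE 0.050, limma adjusted p = 0.582). Plxnb3, a semaphorin receptor, had 0.46, 0.24 and 0.03, with pool 3 near 0, and a mean of 0.24 (SE 0.062, adjusted p = 0.555). Pool 3 of Plxnb3 averaged arrays at -0.22 (stress in Cy5) and 0.28 (stress in Cy3). Gjb1, the connexin of oligodendrocyte gap junctions, had a mean of 0.13 (SE 0.047), Evi2a 0.21 (SE 0.079), Tspan2 0.17 (SE 0.071) and Ninj2 0.11 (SE 0.046). Opalin and Gpr37, both also membrane proteins of mature cells, had means of 0.03 and 0.05. Among the enzymes, Galnt6 had 0.01, 0.25 and 0.19 (mean 0.15, SE 0.056, adjusted p = 0.931), and Qdpr, which regenerates the cofactor tetrahydrobiopterin, had 0.19, 0.15 and 0.09 (mean 0.14, SE 0.048).

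By the brighter probes, Trf was the only secreted gene at an unadjusted p under 0.05. Adamts4, a protease that cleaves matrix proteoglycans, had 0.69, 0.28 and -0.12, but its second probe had 0.32, 0.21 and 0.14, and the mean was 0.28 (SE 0.16) for the first and 0.22 (SE 0.060, limma adjusted p = 0.569) for the second. Enpp2, which makes lysophosphatidic acid, and Apod, a lipid carrier, had means of -0.01 and 0.00. The second Apod probe, described below, had -0.32, -0.32 and -0.20 (mean -0.28, SE 0.13, adjusted p = 0.976). The median of the mature stage was 0.12, with 0.14, 0.12 and 0.12 in the pools (SD 0.013).

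Ermn, which encodes ermin, an actin-binding protein of mature oligodendrocytes, was the lowest of the 38 genes after acute stress, and its 2 probes disagreed. The brighter probe had -0.24, -0.08 and 0.10, with a mean of -0.07 (SE 0.076). The other probe had 0.29, 0.20 and 0.25, with a mean of 0.25 (SE 0.058, limma adjusted p = 0.462). The mean log2 intensity was 14.01 for the brighter probe and 8.91 for the other. The pools of the probes did not overlap. The brighter probe holds a run of 7 GAA triplets, while the other holds no such run. Bases 24 to 53 of the first and bases 1 to 30 of the second are shown for this reason, with the run in capitals. They are placed on mm9 at chr2:57900470-57900529 and chr2:57897554-57897613 on the minus strand.
Ermn, brighter probe: gacgagGAAGAAGAAGAAGAAGAAGAAgtt
Ermn, other probe: ctacctatcatctacctacctacctgctgt
The part of the repeat in the ratio was not tested. With the other probe in its place, 19 genes instead of 18 were higher at an unadjusted p under 0.05, and the median of the 38 genes was 0.13.

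Over the 9 genes whose second probe was well above background on all 20 arrays, the probes of a gene had the same sign for 8 of 9 after acute stress, with Ermn the exception, and for 7 of 9 in recovery. They had the same sign for 3 of 9 at 8 days and 2 of 9 at 13 days, where most ratios were close to 0.

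**Figure D3:**
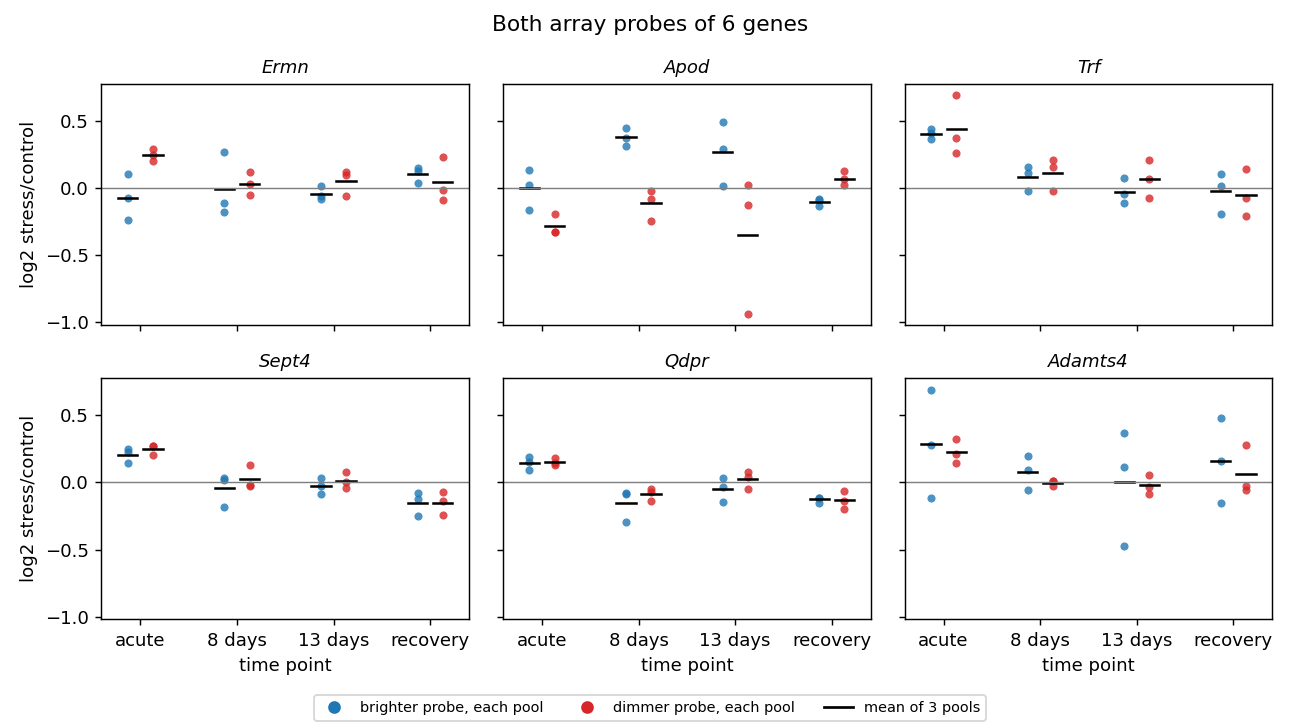
The log2 stress/control ratio in each pool at 4 time points for the brighter (blue) and dimmer (red) probe of 6 genes, with black bars for means of 3 pools. The probes of Trf, Sept4 and Qdpr follow each other, whereas the probes of Ermn separate after acute stress (-0.07 and 0.25) and those of Apod after 8 days (0.38 and -0.11) and 13 days (0.27 and -0.35).

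After acute stress the mature genes and the 4 precursor genes were not separated beyond the spread between pools. The medians of the transcription factors and lipid enzymes were 0.16 and 0.17. That of the 7 other precursor genes described below was -0.01. The median of mature genes minus that of precursor genes was 0.03, with -0.06, 0.14 and 0.00 in the pools (SD 0.11), a difference smaller than the spread between pools. Without Bcas1 the difference was 0.07. The dim genes Enpp6 and Klk6 are in these medians, and without them the precursor median was 0.13 and the difference -0.008, so its sign turned. At 8 days, 13 days and recovery it was -0.003, 0.03 and -0.06 (SD 0.046, 0.022 and 0.069). At 13 days the mature median lay above the precursor median in 3 of 3 pools, by 0.06, 0.07 and 0.03, but it was -0.01 when the 7 genes known also from other cells, namely Pdgfra, Trf, Enpp2, Car2, Gsn, Apod and Il33, were left out. After acute stress the median of the remaining 31 genes was 0.14, close to that of all 38.

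Lists of further lineage genes stood beside these values. The 8 structural myelin genes had a median of 0.28 after acute stress, with 0.33, 0.27 and 0.19 in the pools, and 6 of 8 were higher at an unadjusted p under 0.05. Mobp, a small protein of compact myelin, had 0.61, 0.41 and 0.47 (mean 0.49, SE 0.052, limma adjusted p = 0.0103), with a size just under that needed for a call. Of 7 other precursor genes, among them Cspg4 and Ptprz1, 0 were higher and 1 was lower, with a median of -0.01. Of 6 other regulators measured, among them Sox8 and Nkx2-2, 0 were higher and 0 were lower at that p, with a median of 0.01. Of 12 other mature genes 3 were higher and 1 was lower, with a median of 0.05. The higher ones were Anln, Josd2 and Elovl7, and Anln, the anillin of myelin septin filaments, had 0.40, 0.41 and 0.31 (mean 0.37, SE 0.062, adjusted p = 0.12). The lower one was Fyn, a kinase also used by neurons (mean -0.13, SE 0.045). Whether the lists differ from each other was not tested.

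Among markers of other cells, the meningeal genes also shifted in 1 direction after acute stress. All 10 meningeal genes had a mean below 0, 5 at an unadjusted p under 0.05, and the median was -0.12, -0.17 and -0.24 in the pools. The astrocyte median was 0.25, -0.12 and -0.07, the neuron median 0.13, 0.04 and -0.06, and the median of 5 olfactory bulb markers 0.20, 0.35 and -0.31. Each of these lists had pools on both sides of 0. The endothelial median was below 0 in every pool, though closer to it, with -0.03, -0.01 and -0.09. Of its 6 genes, 5 had a mean below 0, 1 of them at an unadjusted p under 0.05. The olfactory bulb lies beside the frontal pole in the slice. The makeup of the dissected tissue and expression per cell cannot be told apart here, and the part of these markers in the shift was not tested.

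**Figure D4:**
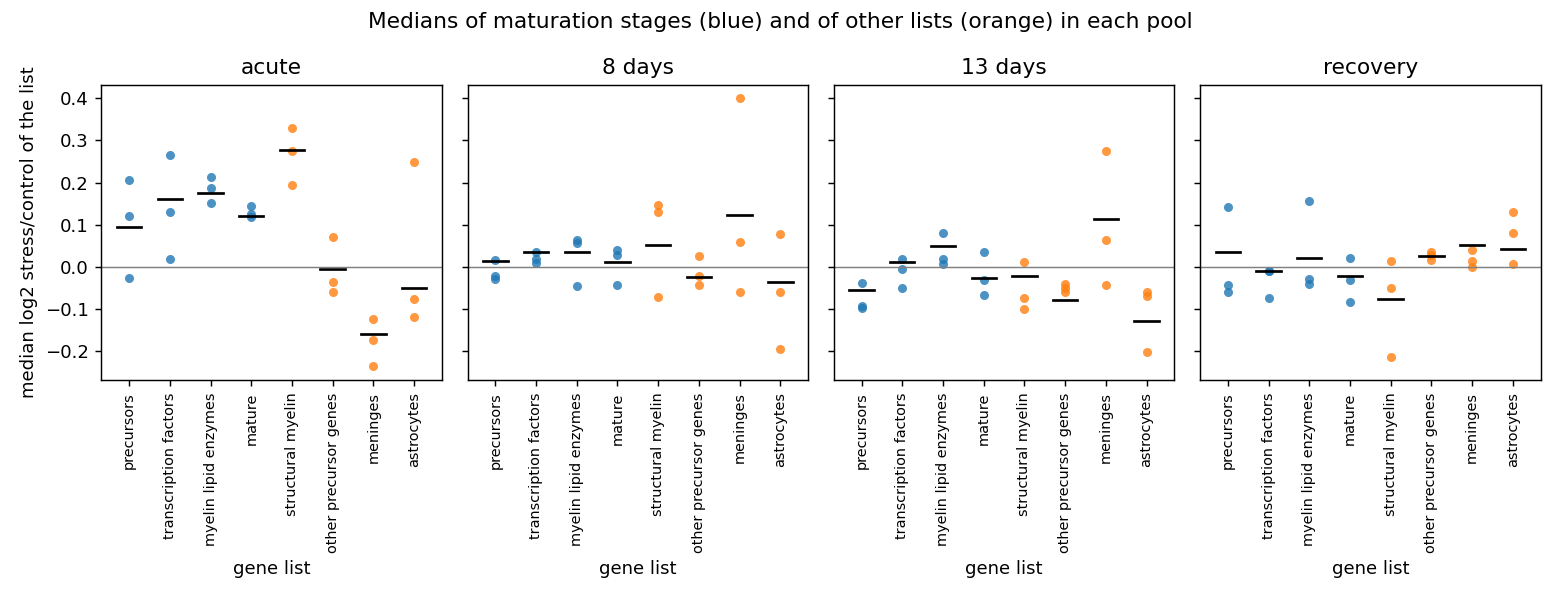
The median log2 stress/control ratio of 4 maturation stages (blue) and 4 other gene lists (orange), with 1 dot per pool and a black bar for the median of the genes' means, at each of 4 time points. After acute stress the mature stage is at 0.12 and structural myelin at 0.28, while the meningeal list is at -0.16, and at later time points the stages lie within 0.06 of 0.

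The arrays of each slide held every time point, but only 1 pool number in 1 dye orientation. A fit over 20 arrays with a term for each slide was also made. Its slide terms also take up dye orientation and pool number, which cannot be told apart from slide. In that fit 6 of the 38 genes had an adjusted p under 0.05 after acute stress whatever the size of the ratio, against 0.274% of all probes, and they were Trf, Ppp1r14a, Fa2h, Bcas1, Nkx6-2 and Galnt6. Their log2 ratios were 0.40, 0.26, 0.34, 0.35, 0.22 and 0.18 with limma adjusted p of 0.00137, 0.00137, 0.00289, 0.00289, 0.00444 and 0.0387. None of them exceeded 0.5, so the number of called genes stayed at 0. Over the alternatives without a left-out pool the adjusted p reached 0.94 for Trf, 0.978 for Ppp1r14a, 0.977 for Fa2h, Bcas1 and Nkx6-2, and 0.981 for Galnt6. The correlation of arrays of 1 pool was estimated at 0.0488 in this fit, so a dye swap added almost as much as a further pool would, although swaps of a pool are 1 replicate. On the 12 pool values with the pool number as a replicate block, Trf alone of the 38 genes had an adjusted p under 0.05 (0.0365). It was then 0.0811 for Ppp1r14a, 0.0894 for Fa2h, 0.0861 for Bcas1, 0.0904 for Nkx6-2 and 0.313 for Galnt6.

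After 8 days of stress the group lay near its controls. The median of the 38 genes was 0.02, with 0.03, 0.03 and -0.04 in the pools (SD 0.041). At an unadjusted p under 0.05, 2 genes were higher, against 0.723% of all probes, and 2 were lower, against 1.67%. In 3 of 3 pools 3 genes were above 0, against 7.5% of all probes, and 3 were below 0, against 11.1%. Compared with acute stress, 33 of 38 ratios were lower, 12 of them at an unadjusted p under 0.05 against 1.26% of all probes. Bcas1 was lower by -0.41 (SE 0.092), Qdpr by -0.30 (SE 0.068) and Trf by -0.32 (SE 0.079), each with a limma adjusted p of 1.00. The pools at 8 days lay below those of acute stress without overlap for 12 of 38 genes, against 3.89% of all probes, and these 3, which were picked partly for this, are among them.

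Apod was the exception at this time point. It encodes apolipoprotein D, which mature oligodendrocytes share with cells of the meninges and vessels. The brighter probe had 0.37, 0.32 and 0.45 after 8 days, all 3 pools well above 0, with a mean of 0.38 (SE 0.073), a ratio of 1.30 on the linear scale. The limma adjusted p was 1.00, and 0.0302 in the fit with slide terms, which 0.0152% of all probes passed. With the pool number as a replicate block on the 12 pool values it was 0.274. The range of adjusted p over the alternatives without a left-out pool was 0.0302 to 1.00. The other probe of Apod lies further along the transcript and was much dimmer, with a mean log2 intensity of 7.81 against 13.44. It had -0.02, -0.24 and -0.08 (mean -0.11, SE 0.13). The probes thus did not overlap at 8 days.

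After 13 days the brighter Apod probe had 0.49, 0.02 and 0.29, with a mean of 0.27 (SE 0.073, limma adjusted p = 0.459), and pool 2 was close to 0. The other probe had -0.94, 0.02 and -0.13, with a mean of -0.35 (SE 0.13, adjusted p = 0.583) that rested on pool 1. In recovery the means of the probes were -0.10 and 0.07. The difference of recovery from 13 days was -0.37 (SE 0.10, adjusted p = 0.995) for the brighter probe. Both probes are placed on chromosome 16 of mm9 on the minus strand, at chr16:31297206-31297265 and chr16:31296299-31296358, and the first 30 bases of each are shown because their ratios had opposite signs at 8 and 13 days.
Apod, brighter probe: aaacccaacctgaccccacactgtcacctt
Apod, other probe: tatcaccccacaagttcacttagttcctgt

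Beside Apod, the meningeal list had medians of 0.40, -0.06 and 0.06 in the pools after 8 days, with 3 of 10 genes higher at an unadjusted p under 0.05, and 0.27, -0.04 and 0.06 after 13 days. Markers of red cells were higher at these times, with a median of 0.62 after 8 days and 1.39 after 13 days. The part of these cells in the ratio of Apod was not tested.

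The lower genes at 8 days were Qdpr and Gal3st1. Qdpr had -0.09, -0.08 and -0.30, all below 0, with a mean of -0.16 (SE 0.048, limma adjusted p = 1.00), and its second probe had -0.07, -0.05 and -0.14. With stress in Cy5 and Cy3, the single arrays of the first Qdpr probe had -0.17 and 0.01 in pool 2. In pool 3 they had -0.54 and -0.05. Gal3st1 had -0.85, 0.06 and -0.05, so its mean of -0.28 (SE 0.12) came from pool 1. Enpp2 had 0.10, 0.01 and 0.23, with a mean of 0.12 (SE 0.052, adjusted p = 1.00). Its pool 2 averaged arrays at -0.12 (stress in Cy5) and 0.14 (stress in Cy3).

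After 13 days of stress the median of the 38 genes was -0.03, with -0.03, 0.04 and -0.04 in the pools (SD 0.041). At an unadjusted p under 0.05, 3 genes were higher, against 3.05% of all probes, and 3 were lower, against 4.13%. In 3 of 3 pools 5 genes were above 0, against 12.2% of all probes, and 7 were below 0, against 14.4%. The higher genes were Apod, Olig2 and Ugt8a. Olig2 had 0.05, 0.19 and 0.13, all above 0, with a mean of 0.12 (SE 0.045, limma adjusted p = 0.615), but on the arrays of pools 2 and 3 with stress in Cy5 it was at -0.02 and 0.01. Ugt8a had 0.38, 0.04 and 0.05, with pool 1 far above the others (mean 0.16, SE 0.070, adjusted p = 0.675). Its pool 2 averaged arrays at -0.17 (stress in Cy5) and 0.25 (stress in Cy3).

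The lower genes were Pllp, Opalin and Galnt6. Pllp, which encodes plasmolipin, had -0.12, -0.12 and -0.09, the narrowest spread of the 6, with a mean of -0.11 (SE 0.043, limma adjusted p = 0.626). Opalin had -0.31, -0.01 and -0.10 (mean -0.14, SE 0.057, adjusted p = 0.642), and Galnt6 had -0.29, -0.05 and -0.05 (mean -0.13, SE 0.056, adjusted p = 0.666). In both, pool 1 was the lowest, and without pool 1 of 13 days 0 genes were lower at an unadjusted p under 0.05. Pool 2 of Opalin averaged arrays at -0.06 (stress in Cy5) and 0.05 (stress in Cy3). The second probe of Galnt6 had a mean of 0.06 (SE 0.085). The precursor genes above background had means of -0.07 for Pdgfra, -0.14 for Gpr17 and -0.04 for Bcas1, and Pdgfra had -0.03, -0.08 and -0.11 in the pools.

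Between 13 days and acute stress, 33 of 38 ratios were lower at 13 days, 15 of them at an unadjusted p under 0.05 against 2.61% of all probes. This comparison uses the same acute pools as that with 8 days. Trf was lower by -0.43 (SE 0.079, limma adjusted p = 0.158), Fa2h by -0.37 (SE 0.079, adjusted p = 0.275) and Bcas1 by -0.41 (SE 0.092, adjusted p = 0.344). The pools at 13 days lay below those of acute stress without overlap for 14 of 38 genes, against 5.63% of all probes, and these 3, picked partly for this, are among them. With slide terms in the fit, it was 0.0284 for Trf and 0.0417 for Bcas1, while with the pool number as a replicate block on the 12 pool values it was 0.122 and 0.216. Over the alternatives without a left-out pool it ran up to 1.00 for both.

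In recovery the median of the 38 genes was -0.01, with 0.05, -0.06 and -0.04 in the pools (SD 0.060). At an unadjusted p under 0.05, 0 genes were higher, against 0.926% of all probes, and 2 were lower, against 2.63%. Sept4 had -0.08, -0.25 and -0.13, all below 0, with a mean of -0.15 (SE 0.050, limma adjusted p = 0.999), and its second probe had -0.14, -0.25 and -0.07 (mean -0.15, SE 0.045). Qdpr had -0.11, -0.15 and -0.11, with a mean of -0.13 (SE 0.048, adjusted p = 0.999), and its second probe had a mean of -0.13 (SE 0.040). Gpr17 had -0.15, -0.19 and -0.08, with a mean of -0.14 (SE 0.067, adjusted p = 0.999). In all, 11 of 38 genes were below 0 in 3 of 3 pools, against 12.6% of all probes, and 1 was above 0 in 3 of 3, against 8.37%. Between 13 days and recovery, Ugt8a was lower by -0.26 (SE 0.099, adjusted p = 0.995) and Olig2 by -0.14 (SE 0.064, adjusted p = 1.00). The pools of recovery lay below those of 13 days without overlap for 5 of 38 genes, against 5.01% of all probes, and Apod, Ugt8a and Olig2, picked partly for this, are among the 5.

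Promoter windows of 300 bases around a gene's start were read from RefSeq for GRCm38.p6, a later build than that of the probes, for 28 of the 38 genes in 43 windows. Bcas1, Fa2h, Trf, Gpr17, Sox10, Olig1, Evi2a, Enpp2, Adamts4 and Car2 had no entry. Short patterns of letters named for factors of this lineage were searched on both strands. ACAAAG, a SOX motif, was in 25.6% of the members' windows and 18.7% of all 32851 windows. CAGCTG, an E-box bound by Olig factors, was in 30.2% and 16.3%. CTGGNAC, a loose pattern for the myelin regulator MYRF, was in 25.6% and 19.3%. Its N stands for any base, so not every match is a site of MYRF. Some genes had several windows, which can overlap, and each window was counted. By gene, ACAAAG was in 9 of 28, CAGCTG in 10 and CTGGNAC in 10, and no such share was taken over all genes. The motifs can share bases in a window, and a match is only a description of the letters.

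Windows of Ppp1r14a and Plxnb3, which were both higher after acute stress at an unadjusted p under 0.05, are shown with these letters in capitals. They are examples with matches. Nkx6-2, also higher at that p, had none of these letters in its window. A link between matches and the ratios was not tested. The window of Ppp1r14a, chr7:29289070-29289369 on the plus strand, holds CTGGNAC on each strand, both with G at N. That of Plxnb3, chrX:73756853-73757152 on the plus strand, holds ACAAAG and a pair of CAGCTG.
Ppp1r14a: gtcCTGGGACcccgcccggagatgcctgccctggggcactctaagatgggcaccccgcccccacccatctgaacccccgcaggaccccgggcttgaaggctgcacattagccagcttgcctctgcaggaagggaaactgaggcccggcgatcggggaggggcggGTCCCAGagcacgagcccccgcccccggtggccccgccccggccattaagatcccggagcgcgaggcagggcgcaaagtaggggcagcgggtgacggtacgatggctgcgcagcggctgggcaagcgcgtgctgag
Plxnb3: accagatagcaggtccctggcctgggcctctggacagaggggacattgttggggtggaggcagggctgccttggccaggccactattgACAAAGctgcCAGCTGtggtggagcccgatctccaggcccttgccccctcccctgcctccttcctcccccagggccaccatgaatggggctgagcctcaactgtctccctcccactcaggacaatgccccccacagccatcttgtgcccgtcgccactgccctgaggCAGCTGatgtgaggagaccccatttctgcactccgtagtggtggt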

How the data were processed

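The authors read 2-colour Agilent 4x44K v2 arrays with Feature Extraction. The deposited scanner tables hold red and green intensity per spot and a log10 ratio of the dyes, and the deposited tables of processed values hold log2 ratios of stress over control. The R version was 4.3.3, with limma (version 3.58.1), statmod (1.5.0) and data.table (1.17.8). Background was corrected by normexp (offset 50), which compresses the ratios of dim spots, followed by loess and Aquantile. Outlier spots were set to missing, and spots of a probe were averaged. Dye swaps were averaged with their originals, which left 12 pairs of pools, and the dye swaps of pool 1 were not used here. Each time point had its own limma coefficient, moderated with eBayes, and p-values were adjusted by Benjamini-Hochberg. They measure the spread between pools. Between 70.5% and 74.4% of probes per array were well above background, and the number of arrays limits the precision.

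The members and gene lists were chosen with earlier results of these data known. Full values were due for called genes, for up to 6 genes per time point and 3 per difference between time points with 1 direction in 3 of 3 pools (or no overlap) and an unadjusted p under 0.05, for the 2 genes of lowest p in each of 7 role groups, and for Apod. Other named genes, among them Ermn, were chosen after their values were seen. Alternatives covered background, normalization, the authors' values, dim probes, blocks, dye balance, moderation, probes and left-out pools. Those with the other Ermn probe or without Bcas1 or the dim genes, and counts at an unadjusted p, were chosen after seeing the data. Accessions of 37 of 38 genes matched RefSeq, where Sept4 is named Septin4.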

Additional observations from a re-analysis of the deposited data

How the results depend on the processing

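The count of 0 called genes at each time point and between time points held under the alternatives run, except with the log ratio of Feature Extraction, which called 1 gene after acute stress, Nkx6-2 at 0.61 (limma adjusted p = 0.0354, which over its alternatives ran from 0.00444 to 0.977). The number higher after acute stress at an unadjusted p under 0.05 was 1 with median centring in place of loess, and 13 to 19 when 1 pool was left out. The median of the 38 genes after acute stress was 0.25 with median centring, 0.17 with the log ratio of Feature Extraction, 0.10 with pools 2 and 3 alone, and 0.10 to 0.14 when 1 pool was left out. At the other time points its sign was not stable. With median centring it was -0.029 at 8 days, 0.017 at 13 days and 0.028 in recovery, and when 1 pool was left out it ran from -0.0095 to 0.043, from -0.051 to 0.0029 and from -0.051 to 0.024. The mature minus precursor median at 13 days was 0.083 with a normexp offset of 0, 0.065 without background correction, 0.073 with median centring, 0.105 with the log ratio of Feature Extraction, 0.078 with the authors' values, -0.0067 without the 7 genes known from other cells, and 0.024 to 0.059 when 1 pool was left out. In recovery it was 0.014 with median centring. The other Apod probe gave -0.35 at 13 days, -0.11 at 8 days and 0.42 for recovery minus 13 days, the other Galnt6 probe gave 0.061 at 13 days, and Enpp2 at 8 days was -0.027 with median centring. The cause of these differences was not tested.

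With the pool number as a replicate block, 22 genes were higher after acute stress at an unadjusted p under 0.05, 0 were called, and the median of the 38 genes was 0.13. The adjusted p of Trf was then 0.0365. Pools of 1 number share slides and a scan at every time point, which the fit without the block leaves out. Deviations of same-numbered pools correlated at -0.116 to 0.508 (median 0.279, over 0.1 for 12 of 18 pairs), and those of different numbers had a median of -0.128. Since not every pair was over 0.1, the block was kept as an alternative. The limma adjusted p of Trf was 0.0549 without the block, so its side of the threshold depended on this choice.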
